A study of Mus musculus with 9 samples.

Results

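The genes described here make, cut or bind hyaluronan. They were chosen by name as the synthases Has1 and Has2, the precursor enzyme Ugdh, the receptor Cd44, the hyaluronidases Hyal1 and Hyal2, the hyaluronan-degrading protein Cemip and the hyaluronan-binding protein Tnfaip6, and all 8 were found among the 54534 features listed for the study. They were read in 9 single-cell RNA-seq libraries of mouse knee joint cells, made with 10x Genomics 5' chemistry, in which molecules were counted for each gene in each cell by their unique molecular identifiers (UMIs). All mice carried Gdf5-Cre;Tom;Pdgfrα-H2BGFP, were 11 to 12 weeks old and gave cells after collagenase digestion and a live-cell sort. The Tom+ cells descend from cells that once drove Cre from Gdf5 regulatory sequence in the developing joint, so Tom reports ancestry and not present Gdf5 expression. The Tom-GFP+ cells lack that label and carry the Pdgfrα reporter. The groups were Tom+ steady state (n = 2 libraries, joints without surgery), Tom-GFP+ steady state (n = 1), Tom+ injured (n = 4) and Tom-GFP+ injured (n = 2), the injured joints being taken 6 days after a surgical opening of the right knee and a scratch through the cartilage of the trochlear groove.

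Hyaluronan is a long sugar chain that synthases at the plasma membrane spin out of cells, and in the joint it gives synovial fluid its viscosity. Like lubricin, the product of Prg4, hyaluronan is a lubricating factor of the joint. Its building blocks are UDP-glucuronic acid, which Ugdh makes from UDP-glucose, and UDP-N-acetylglucosamine, the end product of the hexosamine pathway through Gfpt, Gnpnat1 and Uap1. Cells hold and take up hyaluronan through Cd44, cleave it with Hyal2, Cemip and Tmem2 outside the cell or at its surface and with Hyal1 in the lysosome, and Tnfaip6 (also called TSG-6) transfers heavy chains of inter-alpha-trypsin inhibitor onto it.

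On GRCm38, by the GENCODE vM21 annotation, Has1 (ENSMUSG00000003665) lies at chr17:17843323-17855205 on the minus strand, Has2 (ENSMUSG00000022367) at chr15:56665627-56694539 on the minus strand and Ugdh (ENSMUSG00000029201) at chr5:65413221-65435949 on the minus strand. Cd44 (ENSMUSG00000005087) lies at chr2:102811141-102901665 on the minus strand, Cemip (ENSMUSG00000052353) at chr7:83932857-84086502 on the minus strand and Tnfaip6 (ENSMUSG00000053475) at chr2:52038009-52056686 on the plus strand. Hyal2 (ENSMUSG00000010047, chr9:107567945-107572779) and Hyal1 (ENSMUSG00000010051, chr9:107576927-107581710) are neighbours on the plus strand. Hyal1 overlaps Naa80 and Hyal3 on its own strand and Ugdh overlaps Gm43552 and Gm43289 on its own strand, so the counts of Hyal1 and Ugdh are uncertain to that extent.

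Promoter sequence is shown for 3 members that the results below turn on. RefSeq windows on GRCm38.p6 were found for 7 of the 8 members (none for Has2), and each run, printed 5' to 3' on the gene's strand, keeps only the bases upstream of the first annotated start. The windows were searched on both strands for the TATA box (TATAAA), the cAMP response element core (TGACGT), the AP-1 motif (TGACTCA), the E-box (CACGTG), a forkhead motif (TGTTTAC), a Sox motif (AACAAT) and the TEAD motif (GGAATG). In the upstream run of Tnfaip6 (chr2:52037863-52038008, plus strand) the capitals mark the AP-1 motif on the opposite strand, which is held by 5.20% of all 32851 windows. In that of Has1 (chr17:17855206-17855438, minus strand) they mark the core of the cAMP response element, matched on both strands in overlapping letters and held by 7.51% of windows. In that of Cemip (chr7:84086506-84086755, minus strand) they mark a TATA box, held by 13.6% of windows.
Tnfaip6: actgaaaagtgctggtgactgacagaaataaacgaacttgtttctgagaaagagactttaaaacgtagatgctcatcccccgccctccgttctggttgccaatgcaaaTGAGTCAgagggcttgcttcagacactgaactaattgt
Has1: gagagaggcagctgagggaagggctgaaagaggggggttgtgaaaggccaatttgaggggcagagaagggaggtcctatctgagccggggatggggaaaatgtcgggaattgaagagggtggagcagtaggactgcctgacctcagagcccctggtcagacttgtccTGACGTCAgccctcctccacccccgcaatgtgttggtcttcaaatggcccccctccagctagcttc
Cemip: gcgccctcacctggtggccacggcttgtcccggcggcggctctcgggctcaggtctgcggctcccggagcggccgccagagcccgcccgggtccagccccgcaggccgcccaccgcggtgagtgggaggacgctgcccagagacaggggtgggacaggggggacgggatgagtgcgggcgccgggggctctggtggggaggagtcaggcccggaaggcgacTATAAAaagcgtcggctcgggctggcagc
These matches describe letters and not bound sites. The TEAD motif was the other match among the members' windows, in those of Tnfaip6 and Hyal2, against 14.7% of all windows, and the E-box, forkhead and Sox motifs were matched in none of the 7, against 7.15%, 3.65% and 10.7% of all windows.

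The libraries held 333 to 865 barcodes each and 2866464 to 15033902 UMIs, and 4788 of 5161 barcodes passed the cell filters. As a sign of RNA quality, 90% of barcodes had at most 4.24% to 4.27% mitochondrial UMIs in the steady-state libraries and at most 3.88% to 6.01% in 4 of the 6 injured ones, but this limit was 14.0% in Tom+ injured replicate 4 and 82.3% in Tom-GFP+ injured replicate 2, which kept 277 of 424 barcodes. tdTom UMIs were found in 84.1% to 97.7% of the stromal cells of the Tom+ libraries and in 4.14% to 8.91% of those of the Tom-GFP+ libraries. At most 2 barcodes were shared by any of the 36 pairs of libraries. Cells were put into classes by marker genes, none of them a hyaluronan gene: lining (683 cells, high in Prg4 with at least 2 of Clic5, Tspan15, Itga6, Htra4 and Sox5 and without Thy1), sublining (1918 cells with Thy1 or Cd34), Dpp4+ sublining (384), Lrrc15+ Adam12+ (561, none in the steady state), a Prg4+ Clic5-negative class (115), tenocyte-lineage (213), osteoblast-lineage (197) and chondrocyte-lineage cells (123), with 90 mural, 23 endothelial and 109 immune cells. The lining is cut from a continuous Prg4 level, and 118 of its 683 cells lay below double the cut. Within a library, the UMIs of all cells of a class were added up, and a level is a gene's counts per 1000000 of that sum (CPM), so n counts libraries. The labels number these libraries without saying that they came from separate animals, which the study describes, and p-values measure the spread between libraries. The study calls the Tom-GFP+ mice matched to Tom+ mice, so libraries of the lineages may share animals, and the labels do not say which.

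The lining and the sublining differed in the level of each synthase. In every library Has1 stood above Has2 in the lining and in sublining with Dpp4+ cells. Dpp4+ cells alone went the other way in Tom+ steady state replicate 1, with Has1 at 8.76 and Has2 at 52.6 CPM. Has1 was higher in lining cells and Has2 was lower there, while Ugdh, Cd44 and Cemip were higher in the lining and Tnfaip6 and Hyal2 did not pass the test. Against Dpp4-negative sublining cells of the same libraries, 5 of the 7 members tested passed an adjusted p of 0.05, 4 of them higher, against 38.3% of all 8250 genes tested (edgeR quasi-likelihood test with Benjamini-Hochberg adjustment, library as a block). The members' median log2 difference was 0.71 and that of all genes was -0.00.

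Has1, a synthase of hyaluronan, stood at 499 and 379 CPM in the lining of the Tom+ steady-state libraries, at 502, 890.3, 1002 and 509 in the Tom+ injured libraries and at 975 and 664 in the Tom-GFP+ injured libraries. In sublining cells, Dpp4+ cells included, it stood at 31.3 and 58.7 CPM in Tom+ steady state, 100.2 in Tom-GFP+ steady state, 107, 319, 376 and 158 in Tom+ injured and 245 and 261 in Tom-GFP+ injured libraries. The lowest lining value (379) lay just above the highest sublining value (376), so these sums did not overlap. Dpp4+ sublining cells alone reached 462 and 679 CPM in Tom+ injured replicates 2 and 3, inside the lining's range. The log2 difference of lining from Dpp4-negative sublining was 2.09 ± 0.34 (SE, adjusted p = 1.87e-06 by edgeR with Benjamini-Hochberg adjustment), a 4.27-fold higher level in the lining. This difference is an average over states, and the Tom+ sublining stood lower in the steady state (31.3 and 58.7 CPM) than after injury (107 to 376). The other joint classes were lower or close to sublining. Has1 was lower in tenocyte-lineage cells (log2 -1.37 ± 0.42, adjusted p = 0.0344 by the same edgeR test) and chondrocyte-lineage cells (-1.81 ± 0.52, adjusted p = 0.00505 by edgeR). In osteoblast-lineage cells it ranged from 5.61 to 429 CPM across libraries and overlapped both. Few cells carried some of these values: 311 CPM in Tom-GFP+ steady state came from 1 of 12 cells, and the 429 from 7 of 10. With cells thinned to 4000 UMIs, 11.8% of osteoblast-lineage cells had a Has1 UMI. The main fit did not call Has1 in this class. Over 16 alternatives the log2 difference from sublining ranged from -3.13 to 0.28, and 2 of them passed. These were thinned cells (-3.13, adjusted p = 0.000971 by edgeR) and Seurat clusters as classes (-2.19, adjusted p = 3.55e-06 by edgeR). In the cluster named osteoblast-lineage, 43.4% of cells lay in the marker class.

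Per cell the picture was the same for Has1. With every cell thinned to 4000 UMIs, 76.0% of lining cells had a Has1 UMI (93.1% unthinned) against 27.4% of sublining cells (39.2% unthinned), at median depths of 17188 and 9914 UMIs. Immune cells, which serve as a gauge of free RNA at a median of 8349 UMIs, had one in 2.38% after thinning, and 0 of 21 endothelial cells did.

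Has2, the other synthase expressed here, was scarce in the lining. It stood at 0 and 2.48 CPM in the Tom+ steady-state lining, at 3.03, 6.12, 2.56 and 2.48 in the Tom+ injured and at 2.39 and 0 in the Tom-GFP+ injured lining. In sublining cells with Dpp4+ cells it stood at 23.6 and 12.2 CPM in Tom+ steady state, 15.3 in Tom-GFP+ steady state, 16.7, 21.2, 14.6 and 12.4 in Tom+ injured and 25.1 and 25.5 in Tom-GFP+ injured libraries. Every sublining value lay above every lining value. The log2 difference of lining from sublining was -2.48 ± 0.33 (SE, adjusted p = 2.75e-08 by edgeR with Benjamini-Hochberg adjustment), 5.56-fold lower in the lining. After thinning, 1.04% of lining and 6.07% of sublining cells had a Has2 UMI. Osteoblast-lineage cells were also lower in Has2 than sublining cells (-1.80 ± 0.55, adjusted p = 0.0156 by edgeR), with 0 CPM in all 3 of their steady-state libraries and 6.22 to 15.9 in the injured ones, and that call was lost without Tom+ steady state replicate 2 (adjusted p = 0.0729 by edgeR) or Tom+ injured replicate 2 (0.0524).

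The Prg4+ Clic5-negative class, which shares Prg4 with the lining but lacks Clic5, Tspan15 and Htra4, differed from the lining in the level of each synthase. Its Has1 stood at 95.3, 383 and 306 CPM in the 3 libraries with enough cells, all injured. Its Has2 stood at 17.5, 14.2 and 18.6 CPM in them, from 22, 4 and 4 UMIs, so Has1 was above Has2 here too. In Tom+ injured replicate 1, 27 of the 56 cells of this class carried at least 3 cycling markers. Lining cells were higher in Has1 (log2 1.75 ± 0.54, adjusted p = 0.0195) and lower in Has2 (-2.33 ± 0.55, adjusted p = 0.00168) than this class by edgeR with Benjamini-Hochberg adjustment, 2 of 7 members against 16.2% of all genes tested. With Seurat clusters as classes the Has2 difference was -0.96 and its call was lost (adjusted p = 0.0804 by edgeR). Against sublining cells, 0 of 7 members differed by edgeR (6.53% of all genes), 0 at an unadjusted p under 0.05 and 0 with DESeq2. With clusters in place of marker classes, 5 members differed from sublining in the cluster given this class's name, but 2.50% of its cells lay in the marker class. The cluster got that name because some but not most of its cells passed the lining gate. The Has2 difference of -0.96 was also taken against that cluster, so neither value describes the marker class.

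**Figure D1:**
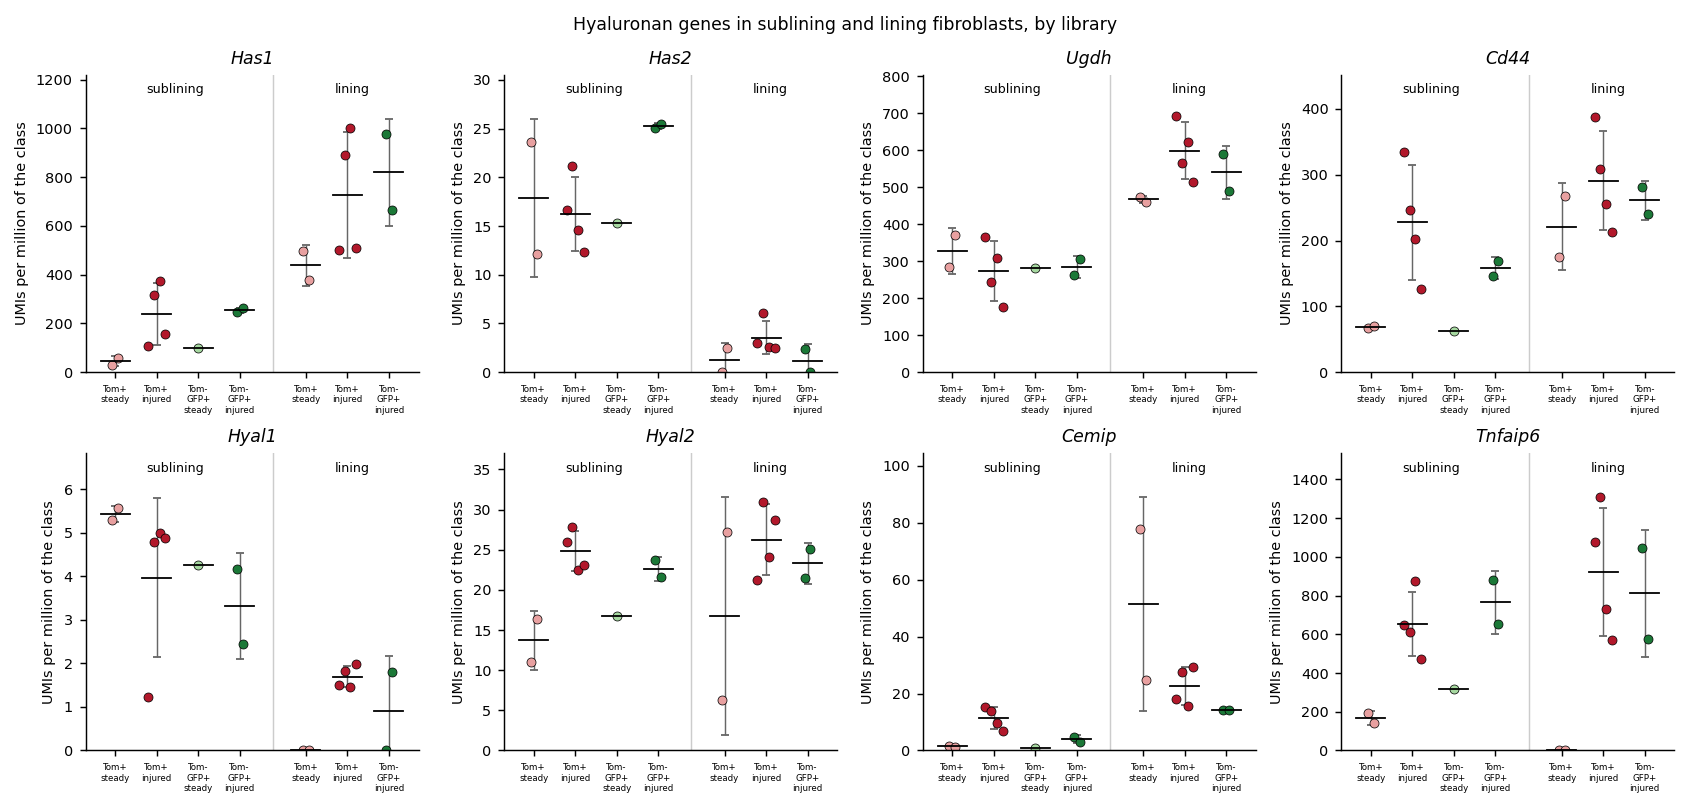
Counts per 1000000 UMIs of the class sum (vertical axes, each from 0 and scaled to its gene) for the 8 members in sublining cells with Dpp4+ cells and in lining cells. Each point is 1 library, horizontal lines are group means and bars are SDs over libraries. Has1 is higher and Has2 lower in the lining, and Tnfaip6 in the lining rises from 0 and 2.48 in the steady state to 572 or more in injured libraries.

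Ugdh, which supplies UDP-glucuronic acid, was higher in lining and Dpp4+ sublining cells than in Dpp4-negative sublining cells. It stood at 474 and 461 CPM in the Tom+ steady-state lining, 692, 565, 622 and 513 in the Tom+ injured and 590.2 and 489.9 in the Tom-GFP+ injured lining, against 178 to 371 over all 9 libraries of sublining with Dpp4+ cells. In Dpp4+ sublining cells alone it ranged from 296 to 638 CPM and overlapped the lining. The log2 differences from Dpp4-negative sublining were 1.00 ± 0.23 for the lining (adjusted p = 0.000301) and 1.01 ± 0.22 for Dpp4+ cells (adjusted p = 0.00148), both by edgeR with Benjamini-Hochberg adjustment. For Dpp4+ cells this was 1 of 7 members against 8.44% of all genes. Ugdh was lower in tenocyte-lineage cells (-1.32 ± 0.27, adjusted p = 0.000784 by edgeR), where 2 of 7 members differed against 7.96% of all genes. In osteoblast-lineage cells the difference was -0.80 ± 0.27 (adjusted p = 0.0363 by edgeR), and 6 of the 9 fits that each left out 1 library did not pass, with adjusted p from 0.057 (without Tom-GFP+ injured replicate 1) to 0.212 (without Tom+ steady state replicate 2).

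Cd44, the main hyaluronan receptor, was higher in the lining (log2 0.71 ± 0.16, adjusted p = 0.000265) and in Lrrc15+ Adam12+ cells (0.70 ± 0.17, adjusted p = 0.00378), and lower in chondrocyte-lineage cells (-2.29 ± 0.27, adjusted p = 1.2e-09), each by edgeR with Benjamini-Hochberg adjustment. In the lining it stood at 175 and 268 CPM in Tom+ steady state, 388, 309, 255 and 213 in Tom+ injured and 282 and 240.5 in Tom-GFP+ injured libraries. In sublining with Dpp4+ cells it stood at 67.9 and 69.5 CPM in Tom+ steady state. After injury Cd44 stood there at 335, 246, 203 and 127 CPM in Tom+ and at 146 and 169.6 in Tom-GFP+ libraries. The lining difference is an average over these states. In Tom+ injured libraries the ranges of lining and sublining overlapped, though the lining was higher in each library. In Lrrc15+ Adam12+ cells Cd44 stood at 303, 309.8, 269 and 242 CPM in the Tom+ injured and at 226 and 415 in the Tom-GFP+ injured libraries. In chondrocyte-lineage cells it ranged from 8.03 to 60.7 CPM, below every lining and Lrrc15+ Adam12+ value. Cd44 was the 1 of 7 members that differed in the Lrrc15+ Adam12+ class, against 11.2% of all genes, and the call was lost when cells were thinned to 4000 UMIs (adjusted p = 0.151 by edgeR).

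Cemip, which drives the breakdown of extracellular hyaluronan, was higher in chondrocyte-lineage, osteoblast-lineage and lining cells than in sublining cells. In chondrocyte-lineage cells it stood at 59.2 CPM in Tom+ steady state, 418 in Tom-GFP+ steady state, 107, 54.6, 159.7 and 83 in Tom+ injured and 724 in Tom-GFP+ injured libraries, the 7 with at least 10 such cells. The other libraries, left out of the test, stood at 112 CPM (Tom+ steady state replicate 1) and 20.6 CPM (Tom-GFP+ injured replicate 2) from 3 UMIs each. In osteoblast-lineage cells it ranged from 21.2 to 72 CPM, in the lining from 14.3 to 77.9 and in sublining with Dpp4+ cells from 0.711 to 15.1. Every chondrocyte-lineage value lay above every sublining value, and lining values overlapped those of the osteoblast-lineage and sublining cells. Among the 7 tested libraries both Tom-GFP+ chondrocyte-lineage values (418 and 724) lay above every Tom+ value (54.6 to 159.7). The study describes steady-state Tom+ chondrocyte-lineage cells as superficial zone chondrocytes and Tom- ones as mature or hypertrophic, likely from growth plate. The class pools these cells, and their part in its Cemip level was not tested. The log2 difference from sublining was 4.78 ± 0.43 for chondrocyte-lineage cells (27.5-fold, adjusted p = 7.73e-13), 2.55 ± 0.55 for osteoblast-lineage cells (adjusted p = 0.000513) and 1.52 ± 0.41 for lining cells (adjusted p = 0.0024), each by edgeR with Benjamini-Hochberg adjustment. The lining difference is an average over unlike states. In Tom+ steady state the lining stood at 77.9 and 24.8 CPM against 1.44 and 1.39 in sublining with Dpp4+ cells. In Tom+ injured replicates 1 to 4 the lining stood at 18.2, 27.5, 15.7 and 29.3 CPM against 15.1, 14, 9.62 and 6.83. Dpp4+ sublining cells had 0 Cemip UMIs in 8 of 9 libraries and 2 UMIs in the other, Tom+ injured replicate 2, and the difference of -3.68 from Dpp4-negative sublining did not pass (adjusted p = 0.0643 by edgeR) but did by DESeq2 (-3.12, adjusted p = 0.00748). After thinning, a Cemip UMI was found in 31.9% of chondrocyte-lineage, 8.44% of lining and 2.47% of sublining cells and in 0 of 375 Dpp4+ cells.

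The hyaluronidases were low in lining and sublining cells. Hyal1, the lysosomal enzyme, had 1.24 to 5.56 CPM in sublining with Dpp4+ cells and 0 to 1.98 in the lining, too few UMIs to enter the comparisons between classes. Hyal2, at the cell surface, had 11.1 to 27.8 CPM in sublining with Dpp4+ cells and 6.24 to 30.9 in the lining, and the ranges overlapped (log2 0.06, adjusted p not under 0.05 in any class tested by edgeR). Endothelial cells were not tested. After thinning, 38.1% of 21 endothelial cells had a Hyal2 UMI, against 9.78% of lining and 8.04% of sublining cells.

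Tnfaip6 differed little between lining and sublining over all libraries (log2 -0.31, adjusted p = 0.563 by edgeR), an average over states in which it behaved differently, as given below. It was lower in chondrocyte-lineage cells (-3.10 ± 0.53, adjusted p = 5.63e-06) and osteoblast-lineage cells (-1.48 ± 0.45, adjusted p = 0.0159) by edgeR with Benjamini-Hochberg adjustment. The first stood at 15.4 to 215 CPM and the second at 16.8 to 688, so osteoblast-lineage values overlapped those of the sublining, and the osteoblast-lineage call was lost without Tom+ injured replicate 2 (adjusted p = 0.055 by edgeR). In all, 4 of 7 members differed in chondrocyte-lineage cells, 1 of them higher, against 33.8% of all genes, and 4 of 7 in osteoblast-lineage cells, 1 of them higher, against 15.7%.

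**Figure D2:**
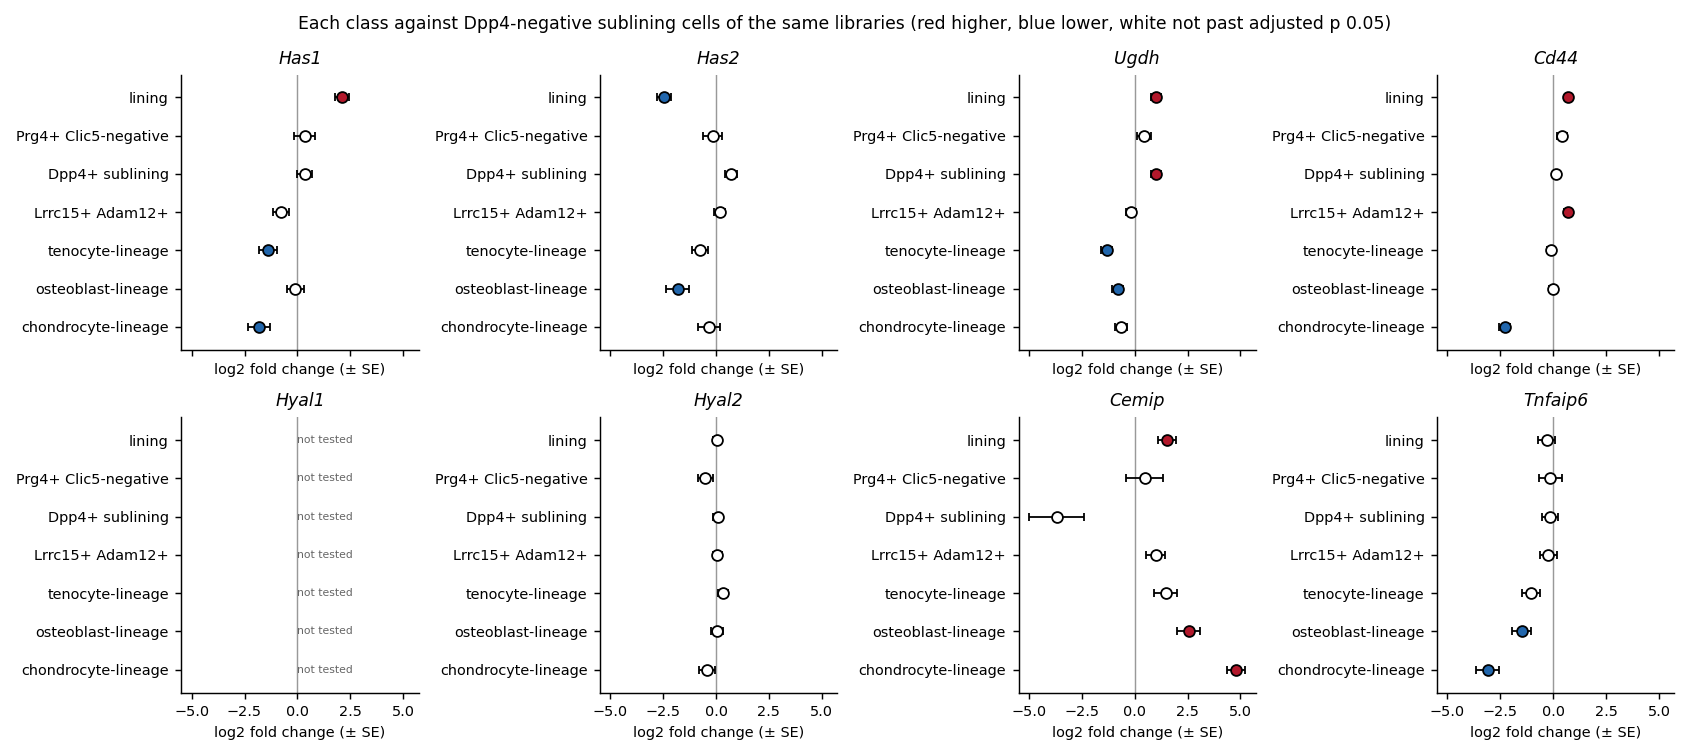
Log2 fold change of each class from Dpp4-negative sublining cells of the same libraries (horizontal axis), 1 panel a member, with bars of 1 standard error. Red points are higher and blue points lower at an adjusted p under 0.05 (edgeR), and white points did not pass. Cemip is furthest from 0 in chondrocyte-lineage cells at 4.78, and Has1 and Has2 take opposite signs in the lining.

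In Tom+ sublining cells 5 of the hyaluronan genes stood higher in injured than in steady-state libraries. At day 6, Has1, Cd44, Hyal2, Cemip and Tnfaip6 were higher than in the steady state, and Has2, Hyal1 and Ugdh, with fitted changes below 0, did not pass the test. These 5 of 8 members compare with 15.0% of the 12392 genes tested (edgeR quasi-likelihood test with Benjamini-Hochberg adjustment, sublining with Dpp4+ cells, 4 injured against 2 steady-state libraries in a fit of all 9). The members' median log2 change was 1.25 and that of all genes was -0.00.

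For the synthases, Has1 rose from 45 ± 19.4 CPM (SD, n = 2) to 240.0 ± 128 (SD, n = 4) in Tom+ sublining cells, the lowest injured library (107) lying above the highest steady-state library (58.7). The log2 change was 2.37 ± 0.51 (SE, adjusted p = 0.015 by edgeR with Benjamini-Hochberg adjustment), 5.17-fold. Has2 changed by -0.15 (95% interval -0.72 to 0.43 by a normal quantile, adjusted p = 0.772 by edgeR) and Ugdh by -0.30 (adjusted p = 0.485 by edgeR), and the groups overlapped for both. After thinning, a Has1 UMI was found in 11.1% of steady-state and 36.3% of injured Tom+ sublining cells, here without Dpp4+ cells.

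For the receptor, Cd44 rose from 67.9 and 69.5 CPM to 335, 246, 203 and 127, with no overlap (log2 1.69 ± 0.33, adjusted p = 0.0102 by edgeR with Benjamini-Hochberg adjustment, 3.22-fold). Among the genes of breakdown, Cemip rose from 1.44 and 1.39 CPM to 15.1, 14, 9.62 and 6.83 (log2 2.94 ± 0.50, adjusted p = 0.0056 by edgeR, 7.68-fold), from 7 UMIs over 582 cells to 144 over 948 cells. Hyal2 rose from 11.1 and 16.3 CPM to 26, 27.8, 22.5 and 23.1 (log2 0.80 ± 0.21, adjusted p = 0.0308 by edgeR, 1.75-fold). In each of the 3 genes all injured libraries lay above both steady-state libraries. Hyal1 did not pass (log2 -0.49, adjusted p = 0.568 by edgeR).

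Tnfaip6 rose in Tom+ sublining cells from 194 and 144 CPM to 649, 610.0, 874 and 474, again with no overlap (log2 1.91 ± 0.28, adjusted p = 0.00296 by edgeR with Benjamini-Hochberg adjustment, 3.75-fold). It was the only member still called without either steady-state library, and its own call was lost with Seurat clusters as classes (log2 1.57, adjusted p = 0.0525 by edgeR). Without replicate 1 and without replicate 2 of the Tom+ steady state, 1 of 8 members was called each time, and the adjusted p by edgeR was 0.135 and 0.0619 for Has1, 0.0876 and 0.0761 for Cd44, 0.0504 and 0.0578 for Cemip and 0.226 and 0.0538 for Hyal2. The Hyal2 call was also lost without Tom+ injured replicate 2 (0.0674), without Tom+ injured replicate 4 (0.0512) and by DESeq2 (adjusted p = 0.123). It was lost too with cells thinned to 4000 UMIs (log2 0.51, adjusted p = 0.308 by edgeR) and with Seurat clusters (0.59, adjusted p = 0.305 by edgeR). In all, Hyal2 passed in 11 of 20 alternatives. The Cemip call was also lost with Seurat clusters (log2 2.545, adjusted p = 0.231 by edgeR).

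Some other measures moved with injury in these cells. Their median depth was 8248 to 8724 UMIs in Tom+ steady-state and 10866.5 to 16468.5 in Tom+ injured libraries. The summed level of the 6 lining markers in sublining cells was 872 to 986 CPM in Tom+ steady-state and 939 to 3979.8 in Tom+ injured libraries, with no marker at 0. Prg4 in the sublining stood at 1.77% to 9.04% of its lining level. The lining's Has1 at that same share amounts to 8.85 and 11.3 CPM in Tom+ steady state, beside measured levels of 31.3 and 58.7. In Tom+ injured libraries it amounts to 45.4, 54.6, 83.4 and 10.2 CPM, beside measured levels of 107, 319, 376 and 158. Without the 213 of 2302 sublining cells highest in Prg4, an alternative chosen after seeing the data, the Has1 change was 2.30 (adjusted p = 0.0287 by edgeR) and the same 5 members were called. The immune list summed to 3.82 to 24.1 CPM in Tom+ steady-state and 7.72 to 47 in Tom+ injured sublining, and the dissociation-stress list of 13 genes to 6991 to 7036 and 3363 to 9551 CPM. The part of these in the changes was not tested.

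The libraries carry gene lists in 2 formats, and Tom+ injured replicate 1 is the only injured library with the format of the steady-state libraries. With the format as a term, Cd44, Cemip and Tnfaip6 kept their calls, the Has1 change was 1.19 (adjusted p = 0.106 by edgeR) and Hyal2 did not pass (0.0821).

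In lining cells of the Tom+ libraries 1 of the 6 members tested passed, and its change was large. Tnfaip6 was almost absent from the steady-state lining and abundant after injury. It stood at 0 and 2.48 CPM in the 2 steady-state libraries and at 1077, 1307, 730.2 and 572 in the 4 injured ones, and the Tom-GFP+ injured lining, whose steady state had 1 lining cell and was not summed, stood at 1044 and 578. Over pooled cells this was 1 UMI of 724367 in 48 steady-state cells against 9558 of 10001013 in 585 injured cells, a ratio of 692 with a 95% counting interval of 124 to 27346. The test gave an adjusted p of 0.000682 (edgeR with Benjamini-Hochberg adjustment), and Tnfaip6 ranked 2 among the 9311 genes tested. The call held in each of the 18 alternatives, with adjusted p up to 0.0126.

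This was 1 of 6 members tested in the lining by edgeR, against 3.18% of all genes, with 4 at an unadjusted p under 0.05 and 1 with DESeq2. Has1 stood at 499 and 379 CPM before and 502 to 1002 after injury (log2 0.77 ± 0.32, adjusted p = 0.216 by edgeR), with no overlap. Cemip went the other way, from 77.9 and 24.8 CPM to between 15.7 and 29.3 (-1.09 ± 0.44, adjusted p = 0.201 by edgeR), with overlap. Ugdh changed by 0.40 ± 0.16 (adjusted p = 0.206 by edgeR), and its 4 injured values (513 to 692) lay above both steady-state values. The dissociation-stress list summed to 9289 to 9845 CPM in the steady-state and 3802 to 7204 CPM in the injured lining of Tom+ libraries, and the immune list to at most 3.12 and 32.6 CPM. Their part in the Tnfaip6 change was not tested.

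Counted by cell after thinning to 4000 UMIs, 0 of 47 lining cells of the Tom+ steady state had a Tnfaip6 UMI, which allows a share of up to 6.38% of cells with a UMI at that depth and says nothing of expression below it. Unthinned, 1 of 48 had one. In the injured lining one was found in 357 of 578 cells sorted as Tom+ (61.8%) and in 30 of 49 sorted as Tom-GFP+ (61.2%). In sublining cells without Dpp4+ cells the share was 32.7% in Tom+ and 46.1% in Tom-GFP+ steady state and 59.8% and 63.3% after injury. Immune cells over all libraries had one in 16.7%. The steady-state lining lay below the sublining of the same libraries, and the injured lining lay close to it.

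The injury effect itself was compared between lining and sublining cells of the Tom+ libraries, a test added after the data were seen, with library as a block. In this interaction, 4 of 8 members passed against 1.44% of the 11891 genes tested by edgeR with Benjamini-Hochberg adjustment. Tnfaip6 rose more in the lining, by 7.48 ± 0.76 on the fitted log2 scale (SE, adjusted p = 0.000566 by edgeR), a scale on which the near-empty steady state makes the size depend on the fit. Cemip (-3.85 ± 0.68, adjusted p = 0.0159), Cd44 (-1.12 ± 0.22, adjusted p = 0.0255) and Has1 (-1.44 ± 0.32, adjusted p = 0.0485) changed less in the lining or in the opposite direction, by the same edgeR test. With Seurat clusters as classes Cemip (adjusted p = 0.307 by edgeR), Cd44 (0.0574) and Has1 (0.185) did not pass. With the strict cell filter Has1 did not pass (adjusted p = 0.0526 by edgeR). Cemip passed in 7, Cd44 in 5 and Has1 in 4 of the 10 alternatives. Tnfaip6 passed in all 10. The others did not pass when Tom+ steady state replicate 1 was left out (adjusted p by edgeR 0.321 for Cemip, 0.0583 for Cd44 and 0.386 for Has1). Without Tom+ steady state replicate 2, Cemip (0.0926) and Cd44 (0.488) were lost, without Tom+ injured replicate 2 Cd44 (0.0677) and Has1 (0.128), without Tom+ injured replicate 3 Cd44 (0.0511) and Has1 (0.0723), and without Tom+ injured replicate 4 Has1 (0.0681).

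**Figure D3:**
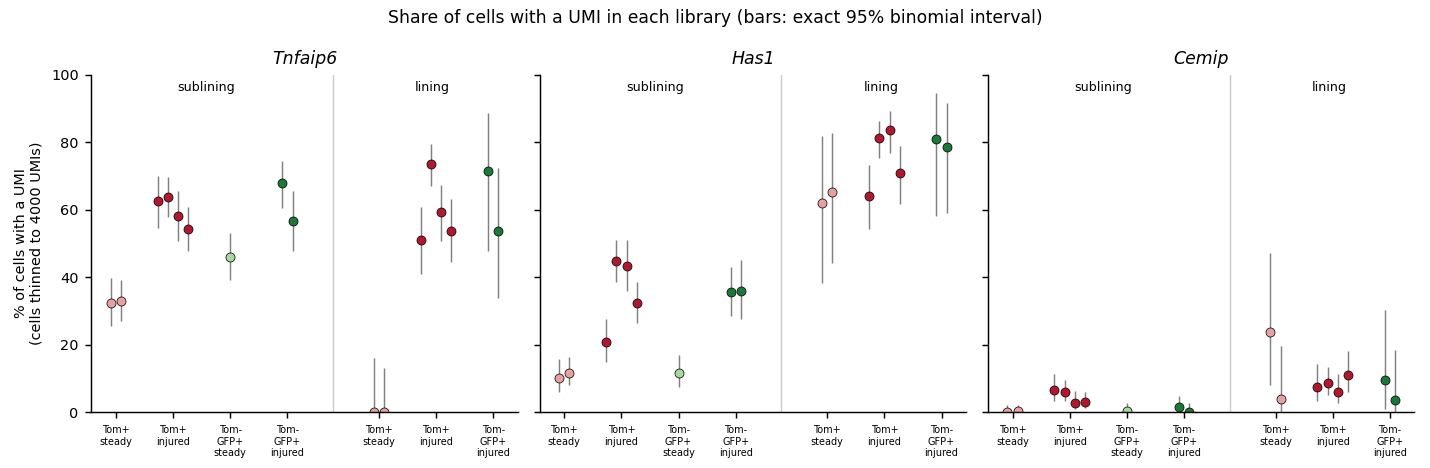
Share of cells with a UMI of Tnfaip6, Has1 or Cemip after thinning each cell to 4000 UMIs (vertical axis, percent), in sublining cells without Dpp4+ cells and in lining cells. Each point is 1 library and bars are exact 95% binomial intervals, which cover counting error only. Both Tom+ steady-state lining libraries sit at 0 for Tnfaip6, while their Has1 shares are 61.9% and 65.4%.

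In Tom-GFP+ sublining cells, which have a single steady-state library, 7 of 8 members had fitted changes above 0, all but Hyal1, and no member passed. Tnfaip6 stood at 319 CPM before and at 881 and 652 after injury (log2 1.25 ± 0.38, adjusted p = 0.114 by edgeR with Benjamini-Hochberg adjustment). Cd44 stood at 63.3 and then 146 and 169.6 CPM (1.31 ± 0.46, adjusted p = 0.159 by edgeR), Cemip at 0.711 and then 4.87 and 2.94 (2.41 ± 0.87, adjusted p = 0.167 by edgeR) and Has1 at 100.2 and then 245 and 261 (1.33 ± 0.67, adjusted p = 0.321 by edgeR). Both injured libraries lay above the steady-state library in each of these 4. The same held for Hyal2, at 16.7 and then 23.7 and 21.6 CPM. It held as well for Has2, at 15.3 and then 25.1 and 25.5 CPM, whose fitted change in Tom+ sublining cells was below 0. By edgeR 0 of 8 members passed, against 2.32% of all genes, with 3 at an unadjusted p under 0.05 and 1, Tnfaip6, with DESeq2 (adjusted p = 0.0486). With a replicate block Tnfaip6 passed (1.40, adjusted p = 0.0447 by edgeR). Format and injury cannot be told apart within this lineage, and with the format as a term, estimated from the Tom+ libraries, Has1 was at -0.10 (adjusted p = 0.961) and Cd44 at 2.10 (adjusted p = 0.0315 by edgeR). The spread of the lone steady-state library is taken from the other groups, and since the mice may be shared with the Tom+ comparison, the comparisons are not independent.

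**Figure D4:**
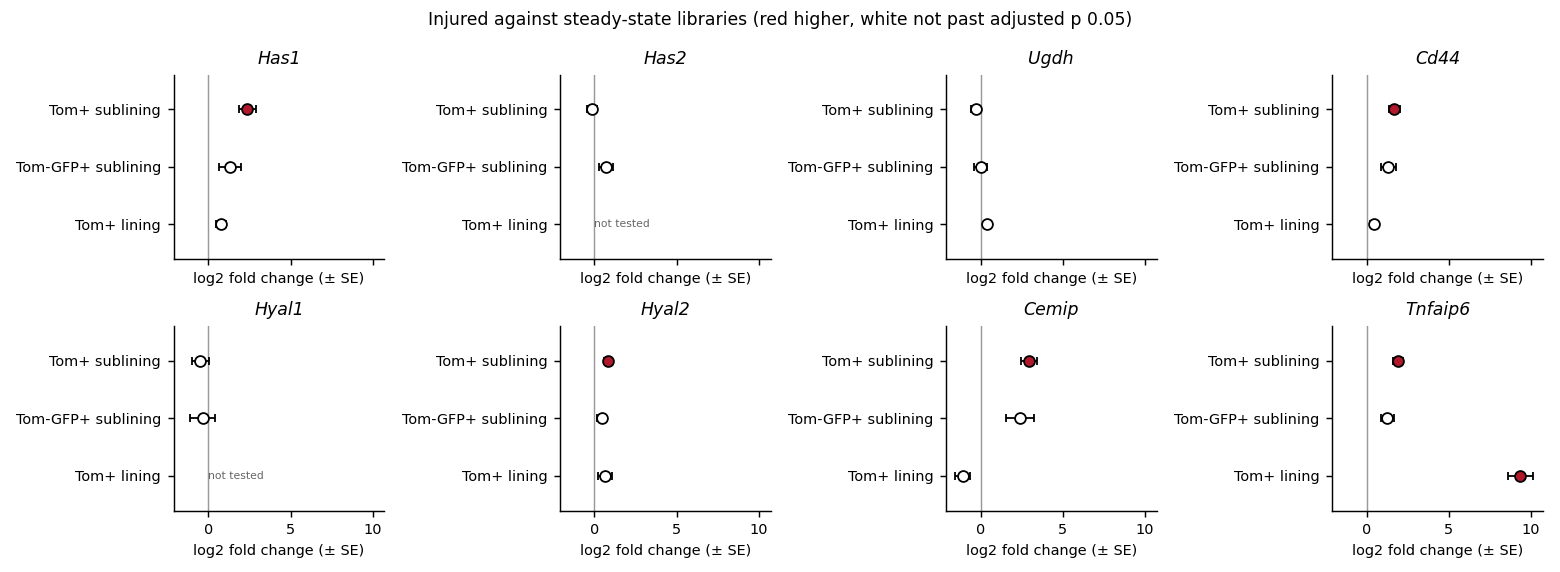
Log2 fold change of injured from steady-state libraries (horizontal axis) for each member in Tom+ sublining, Tom-GFP+ sublining and Tom+ lining cells, with bars of 1 standard error. Red points are higher at an adjusted p under 0.05 (edgeR) and white points did not pass. The points of 5 members in Tom+ sublining and 1 in the lining, Tnfaip6, are red, and the size of that lining point depends on the fit because its steady state held 1 UMI.

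The lineages were not shown to differ. Between Tom+ and Tom-GFP+ sublining cells of injured joints, 0 of 8 members passed by edgeR, against 0.00807% of all genes, with 1 at an unadjusted p under 0.05 and 0 with DESeq2. That gene was Cemip, at 6.83 to 15.1 CPM in Tom+ and at 4.87 and 2.94 in Tom-GFP+ injured libraries, without overlap (log2 1.53 ± 0.41, adjusted p = 0.429 by edgeR with Benjamini-Hochberg adjustment). Has2 had the opposite sign at -0.61, and its 2 Tom-GFP+ values (25.1 and 25.5) lay above all 4 Tom+ values (12.4 to 21.2). The test of whether the injury effect differed between the lineages gave 0 of 8 members by edgeR, 0 at an unadjusted p under 0.05 and 0 with DESeq2, against 0% of all genes (0 called by edgeR, 310 at an unadjusted p under 0.05 and 2 with DESeq2).

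Other genes of the hyaluronan pathway were read from a list of 37, of which 22 were abundant enough to test in sublining cells. In lining cells 11 of the 22 were higher and 5 lower by edgeR with Benjamini-Hochberg adjustment, beside the 38.3% of all genes. On the sugar supply side Ugp2, which makes UDP-glucose, was higher by 1.62 ± 0.26 (log2, SE), Gfpt2, the entry enzyme of the hexosamine pathway, by 1.60 ± 0.25, Gnpnat1 by 1.57 ± 0.24 and Uap1 by 1.32 ± 0.28, whereas Gfpt1, Pgm3 and Nagk did not pass, so 4 of 7 were higher. Of the degrading enzymes Tmem2, a cell-surface hyaluronidase, was higher by 1.48 and the lysosomal Hexa by 1.02 and Gusb by 0.90. Of the 16 matrix binders listed, 7 were tested, 4 were lower, 2 were higher and Habp4 (0.05) did not pass. The lower ones were versican (Vcan), by -2.96 ± 0.26, aggrecan (Acan) by -3.48 ± 0.71, Ptx3, a partner of Tnfaip6 in cross-linking, by -3.43 ± 0.41 and the link protein Hapln3 by -2.10 ± 0.80, and the higher ones were Hapln1 (1.27) and Itih5 (0.71). Of the receptors, Layn was lower (-1.10) and Tlr2 (0.89) and Tlr4 (0.65) were higher.

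In the other classes fewer of the 22 differed from sublining cells by the same edgeR test. The counts of higher and lower genes were 5 and 8 in chondrocyte-lineage cells (33.8% of all genes differed there), 4 and 4 in tenocyte-lineage cells (7.96%) and 3 and 2 in osteoblast-lineage cells (15.7%). They were 3 and 4 in Lrrc15+ Adam12+ cells (11.2%), 2 and 1 in Dpp4+ cells (8.44%) and 2 and 1 in Prg4+ Clic5-negative cells (6.53%). Against that last class the lining had 7 higher and 3 lower (16.2%). In Dpp4+ cells the higher genes were Gfpt2 (1.13, adjusted p = 0.00142 by edgeR) and Uap1 (0.84, adjusted p = 0.0414 by edgeR) and the lower was Tmem2 (-1.34, adjusted p = 0.0369 by edgeR).

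After injury, 5 of the 22 rose and 1 fell in Tom+ sublining cells, where 15.0% of all genes passed, 1085 of the 1854 lower. Tmem2 rose from 3.46 ± 1.49 (SD, n = 2) to 17.2 ± 5.36 CPM (SD, n = 4; log2 2.22 ± 0.40, adjusted p = 0.00732 by edgeR with Benjamini-Hochberg adjustment). Ptx3 rose from 23.6 ± 10.2 to 87.4 ± 38.7 CPM (1.87 ± 0.51, adjusted p = 0.0359 by edgeR) and Gusb by 0.56 (adjusted p = 0.0406 by edgeR). Acan rose from 8 UMIs in all to 719, at 7.84 to 84.3 CPM in injured libraries (adjusted p = 0.0182 by edgeR). Hmmr, a receptor that is also a gene of dividing cells, had 0 UMIs in the steady state and 126 after injury (adjusted p = 0.0275 by edgeR), where 0.719% to 12.0% of these cells carried at least 3 cycling markers, against 0% in the steady state. Gfpt2 fell from 168 ± 55.8 to 84.7 ± 26.9 CPM (log2 -1.03 ± 0.28, adjusted p = 0.0348 by edgeR).

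In Tom+ lining cells 2 of the 20 tested rose and 1 fell, against 3.18% of all genes. Uap1 rose from 330.5 and 421 CPM to 792, 1046, 923 and 765 (log2 1.28, adjusted p = 0.024 by edgeR with Benjamini-Hochberg adjustment) and Ugp2 from 471 and 602 to 1094, 967, 959 and 869.8 (0.90, adjusted p = 0.0276 by edgeR), in neither case with overlap. Both feed the UDP-sugars from which hyaluronan is built. Habp4 fell (-1.37, adjusted p = 0.0388 by edgeR). The injury effect on Uap1 (by 1.47, adjusted p = 0.0086) and Gfpt2 (by 1.14, adjusted p = 0.0109) was more positive in lining than in sublining cells in the edgeR interaction test added after the data were seen. In Tom-GFP+ sublining, between the lineages and in the lineage interaction, 0 of 22 passed by edgeR.

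**Figure D5:**
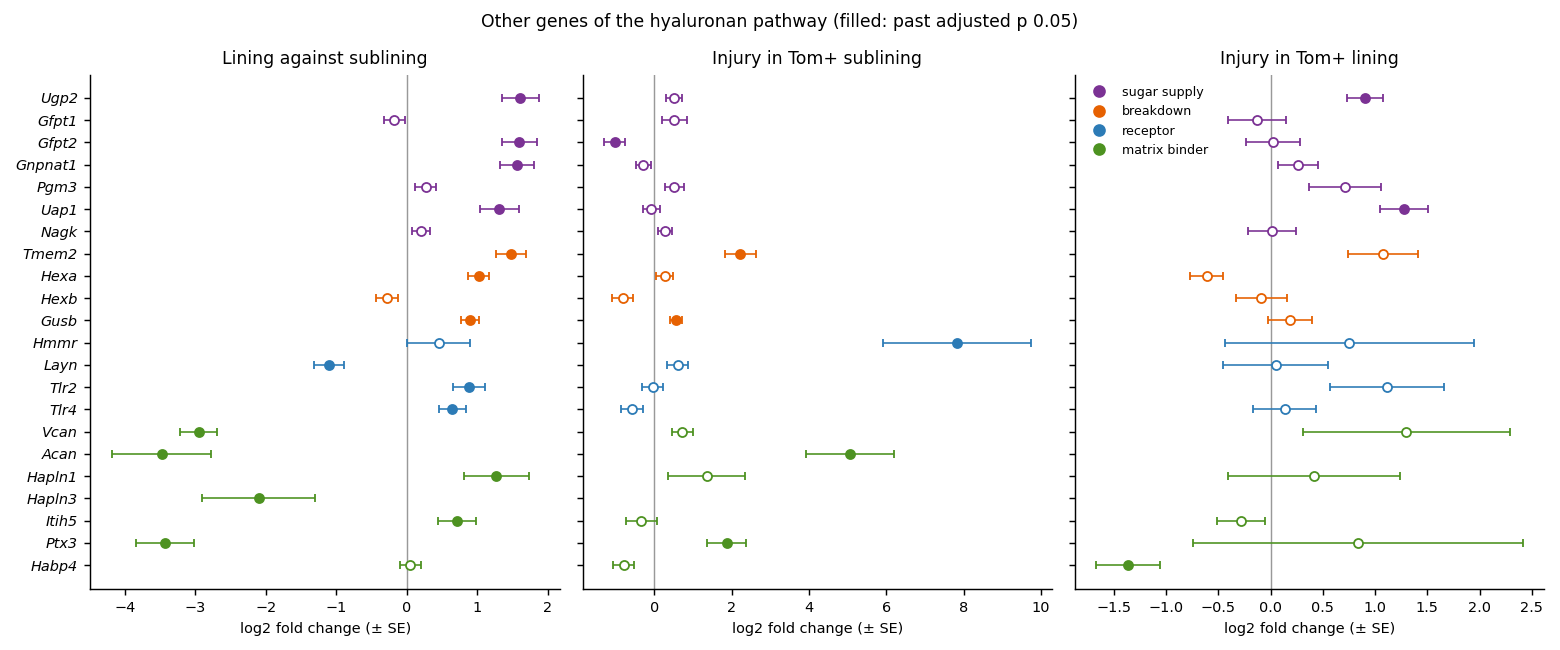
Log2 fold change (horizontal axes, each with its own scale) of the 22 other hyaluronan genes in lining against sublining cells, in injured against steady-state Tom+ sublining cells and in injured against steady-state Tom+ lining cells, with bars of 1 standard error. Colours give the role and filled points passed an adjusted p of 0.05 (edgeR). Of the 7 sugar supply genes 4 are higher in the lining, all by more than 1, while Vcan, Acan and Ptx3 lie near or below -3.

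Across 45 class-by-library sums of at least 20 cells, the genes whose levels on the log2(CPM + 1) scale followed a member most closely were pathway genes for some members. The closest to Ugdh were Uap1 (Pearson r = 0.94), Ugp2 (0.89) and Sema3c (0.88), and the closest to Has1 were Uap1 (0.84), Rspo2 (0.84) and Sbsn (0.83). For Cd44 they were Tagln2 (0.86), Cox6b1 (0.84) and Ppp1ca (0.84), for Cemip Sdk2 (0.85), Slc35a2 (0.79) and Tvp23b (0.78) and for Tnfaip6 Eif3i (0.82), Chl1 (0.74) and Fut11 (0.73). Has2 was closest to Pcdh19 (0.77), and the closest genes for Hyal1, at a mean of 3.64 CPM over the sums, and Hyal2 were Dmxl1 (0.64) and Mrs2 (0.68). These sums share libraries and depth, Sema3c is also a marker of the Dpp4+ class, and the ranking over 8066 genes is a description.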

How the data were processed

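The authors aligned and counted the reads with Cell Ranger (3.0.2 and GRCm38.p6 by the submitters' processing notes) and deposited raw UMI counts per gene for barcodes called as cells, without normalization. Barcodes under 500 genes, under 1000 UMIs or over 10% mitochondrial UMIs were left out. No doublet caller was run. Each cell was put into a class by counts of detected markers, taken in a fixed order, with lining cells at 100 or more and Prg4+ Clic5-negative cells at 20 or more Prg4 UMIs per 10000. Class sums of at least 10 cells per library, in at least 3 libraries, were compared in R 4.3.3 with edgeR 4.0.16 (TMM scaling, filterByExpr, glmQLFit and glmQLFTest, Benjamini-Hochberg adjustment over all genes tested, threshold 0.05), injury and lineage in fits of the 4 groups and classes with library as a block. The fitting code was tested on simulated data, which checks the code and not the calls. Standard errors come from the fitted coefficient and its F statistic.

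Alternatives were DESeq2 1.42.0, no filter on low counts, each library left out, stricter cells (at least 1000 genes, at most 5% mitochondrial), Seurat 5.3.0 clusters as classes, cells thinned to 4000 UMIs, cycling cells left out, a replicate block, the gene list format as a term, Lrrc15+ Adam12+ cells counted as sublining and, added after seeing the data, total-count scaling and sublining cells high in Prg4 left out. The 8 genes, the lists and the tests were chosen with earlier results of these data known. The 8 members were always named, other pathway genes where they passed in at least 1 comparison, and the genes most like a member by Pearson r among those with a mean of at least 10 CPM. The study's online methods were not used here. Intervals on shares are exact binomial (95%), and intervals and limits from 0 counts (3 counts) cover counting error only.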

Additional observations from a re-analysis of the deposited data

Results flagged for a closer look

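A library of its group of 4 stood apart from the others in 2 of the 30 groups examined, and chance flags about 1 in 20 groups. Has2 in lining cells of Tom+ injured replicate 2 was at 6.12 CPM against 2.48 to 3.03 in the other Tom+ injured libraries. Hyal1 in sublining with Dpp4+ cells of Tom+ injured replicate 1 was at 1.24 CPM against 4.78 to 4.99 in the others.

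The injury effect differed between lining and sublining cells of the Tom+ libraries for 4 members by the edgeR interaction test, with log2 differences of 7.48 for Tnfaip6, -3.85 for Cemip, -1.12 for Cd44 and -1.44 for Has1. The steady-state lining behind them was 48 cells in 2 libraries.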

How the results depend on the processing

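The lineage interaction had 0 members called in every alternative run. The number stayed between 4 and 6 for lining against sublining cells, where thinning left Has2 untested, between 2 and 3 for lining against Prg4+ Clic5-negative cells and between 4 and 5 in chondrocyte-lineage cells. The next counts leave out the injury by class interaction, whose lost calls are given above. Of 1547 single member values under alternatives, 34 lost and 38 gained a call, and 69 changed sign while passing in neither fit. Only 1 reversed with a call, Ugdh in Lrrc15+ Adam12+ cells, at 1.18 (adjusted p = 3.57e-07 by edgeR) with Seurat clusters as classes against -0.17. The cause of these changes was not tested.

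With Seurat clusters as classes the members called were 2 for injury in Tom+ sublining, 2 in Dpp4+, 3 in Lrrc15+ Adam12+, 5 in Prg4+ Clic5-negative and 5 in tenocyte-lineage cells and 1 in the injury by class interaction. The cluster named Prg4+ Clic5-negative holds lining cells and few cells of the marker class, as given above. Other clusters also matched their marker class in part. Of their cells, 25.7% to 47.1% lay in the marker class in the clusters named Lrrc15+ Adam12+. The share was 35.3% in the tenocyte-lineage, 43.4% in the osteoblast-lineage and 54.7% in the Dpp4+ cluster. The cluster values of these classes, the Ugdh reversal included, therefore describe partly different cells. Without the filter on low counts they were 3 for injury in Tom-GFP+ sublining, 1 between the lineages, 2 for injury in Tom+ lining, 2 in Dpp4+, 4 in Lrrc15+ Adam12+ and 4 in tenocyte-lineage cells. DESeq2 called 1 for injury in Tom-GFP+ sublining and 2 in Dpp4+ cells, thinning left 0 in Lrrc15+ Adam12+ cells, and the strict cell filter left 1 in tenocyte-lineage cells. The gene list format as a term gave 3 for injury in Tom+ and 1 in Tom-GFP+ sublining.

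The sources used here do not say which mice were matched between the lineages. Same-numbered Tom+ and Tom-GFP+ injured libraries, which may come from the same mice, had correlations of deviations of 0.118 and 0.149, and over all 6 same-numbered pairs, most of them of different states, the range was -0.0831 to 0.149. With fewer than 3 candidate pairs the numbers were not taken as pairs. A replicate block gave 1 member, Tnfaip6 (1.40, adjusted p = 0.0447 by edgeR), for injury in Tom-GFP+ sublining and took away Hyal2 in Tom+ sublining (adjusted p = 0.0655 by edgeR).

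Leaving out 1 library at a time gave 1 to 5 members for injury in Tom+ sublining, 0 to 1 in Tom-GFP+ sublining, 1 to 4 in osteoblast-lineage cells, 1 to 3 in tenocyte-lineage cells and 1 to 5 in the injury by class interaction. The osteoblast count was 2 without Tom+ steady state replicate 2 and 1 without Tom+ injured replicate 2. The tenocyte count was 1 without Tom+ injured replicate 2, Tom+ injured replicate 4 or Tom-GFP+ injured replicate 1, each of which cost the Has1 call.

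Counts over all genes moved more. Injury in Tom+ sublining gave 1854 genes, 467 and 611 without either Tom+ steady-state library, 1020 with clusters and 967 when thinned. In Tom-GFP+ sublining it gave 287, 1399 without the filter and 5 without Tom-GFP+ injured replicate 2, and in Tom+ lining 296, 1100 without the filter, 91 thinned, 37 with the format term and 14 without Tom+ steady state replicate 1. Between the lineages 1 gene was called, 38 by DESeq2 and 341 without the filter. Thinning gave 1137 in place of 3156 genes in the lining and 939 in place of 2792 in chondrocyte-lineage cells, with fewer genes tested. Total-count scaling moved the median of all genes to 0.10 in the lining and -0.14 in chondrocyte-lineage cells, and the share of calls that were higher in the lining from 48.6% to 61.5%. Hyal1 and Has2 had too few UMIs for the filter of the injury test in the lining and were not tested there.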
